A study of Schmidtea mediterranea with 9 samples.

Results

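A set of 48 transcripts of the sexual planarian Schmidtea mediterranea was found at about the same level in laser-captured ovary and in surrounding non-gonadal tissue, and at a small fraction of that level in testis. Members were chosen on the deposited CPM values, which are read counts scaled to library size with a further factor for the composition of each library. A transcript was a member where its mean over the 3 non-gonadal libraries was at least 5 CPM, its ovary mean was between 4/5 and 5/4 of that mean, and its testis mean was at most 1/16 of it. Of 36036 transcripts, 11336 reached the minimum in non-gonadal tissue and 48 met all limits. Levels in all 3 tissues therefore chose the members, and the values given below for those levels describe the set and are not tests of it. "Low in testis" fits the set better than "absent", since 46 of the 48 members had at least 1 testis read.

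Planarians are flatworms that can regrow their whole body from a pool of stem cells called neoblasts. The sexual strain is a simultaneous hermaphrodite, in which the ovaries lie ventrally beneath the rear of the brain and the testes lie along the dorsal sides of the body. Each gonad holds germ cells at successive stages together with somatic cells that support them, while the tissue around the gonads holds muscle, nerve, gut, epidermis, parenchyma and neoblasts. A transcript shared by ovary and body but scarce in testis is of interest because a search for gonad-enriched transcripts passes it over.

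The study compared RNA from 3 tissues of wild-type worms of the sexual strain, excised from stained cryosections with a laser and sequenced in 3 libraries per tissue. An ovary library was a pool of captured areas from 14 worms, 10 of them sectioned crosswise and 4 sagittally. Testis and non-gonadal libraries were pools from 6 worms each, 4 sectioned crosswise and 2 sagittally. The labels name no treatment. The whole of each captured area was sequenced, so fewer cells of a type and less RNA per cell cannot be told apart. Total counts were 20629642 to 25730833 in ovary, 22157475 to 25537267 in testis and 18611584 to 21654320 in non-gonadal libraries.

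The tissue labels were checked against 8 marker transcripts. The ovary markers zfs1 and lecg (a galactose-binding lectin) summed to 1465 to 1670 CPM in ovary, 94.2 to 125 CPM in testis and 7.19 to 25.5 CPM in non-gonadal libraries, with zfs1 at 0 in 2 of the 3 testis libraries. The 4 testis markers sped-1, C3H-zfn-1, elav2 and bic-c summed to 39.4 to 86.9 CPM in ovary, 16132 to 19543 CPM in testis and 30.3 to 62.0 CPM in non-gonadal libraries, and each was detected in every library. Each gonad thus held its own markers far above the other tissues. nanos, a marker of early germ cells, was at 34.5 to 40.2 CPM in ovary, 31.5 to 38.0 CPM in testis and 9.08 to 10.6 CPM in non-gonadal libraries. tph1, the tryptophan hydroxylase of serotonin-making cells, was at 1.92 to 3.13 CPM in ovary, 0.119 to 0.285 CPM in testis and 4.16 to 5.58 CPM in non-gonadal libraries, so this nervous system marker was also low in testis. The part of neural or other cell types in the levels of the members was not tested.

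Gene names and protein annotations of the 48 members were not used here. They are called by their transcript number, and no function is given to any of them. Their sequences and genome positions were not analysed here.

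The pattern was uncommon among transcripts that are low in testis. Of the 11336 transcripts at 5 CPM or more in non-gonadal tissue, 774 had a testis mean at or under 1/16 of the non-gonadal mean. In 705 of these the ovary mean was below the band of 4/5 to 5/4, in 48 it was inside and in 21 above. The share inside the band was 6.20% among these 774, against 26.3% among the other 10562, and the median ratio of ovary to non-gonadal tissue was 0.146 against 0.951. Most transcripts of body tissue that are scarce in testis were thus lower in ovary as well, and 198 were at or under 1/16 in both gonads. The mirror pattern, a testis mean inside the band with an ovary mean at or under 1/16, was met by 3 transcripts.

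**Figure D1:**
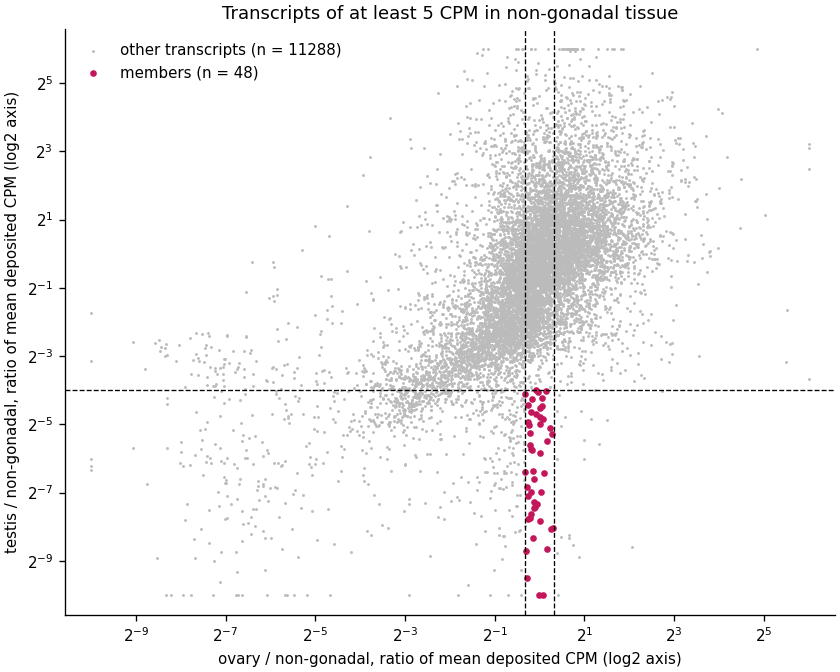
Each point is 1 of the 11336 transcripts with a mean of at least 5 CPM in non-gonadal tissue, placed by its ratio of ovary to non-gonadal mean CPM (x axis) and of testis to non-gonadal mean CPM (y axis), both on log2 axes with values beyond the axis drawn at its edge. The dashed lines are the limits of the rule, and the 48 members (coloured) fill the strip below 1/16 on the y axis and between 4/5 and 5/4 on the x axis.

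Over the 774 transcripts that were low in testis, the ovary ratio was spread over several orders of magnitude with no peak inside the band. In steps of 0.5 on the log2 scale, the fullest step was −3 to −2.5 with 105 transcripts, and a further rise of 88 transcripts lay at −1 to −0.5. The step of −0.5 to 0 held 55 transcripts and the step of 0 to 0.5 held 25. The members are therefore the upper flank of the second rise, not a group set apart from its neighbours. Among the 108 transcripts of at least 100 CPM in non-gonadal tissue that were low in testis, the ovary level was 0.0675% of the non-gonadal level at the lowest and 9.83% at the median, and it was 2% or less in 23. Only 2 of these 108 reached 0.8 of the non-gonadal level, and both are members.

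**Figure D2:**
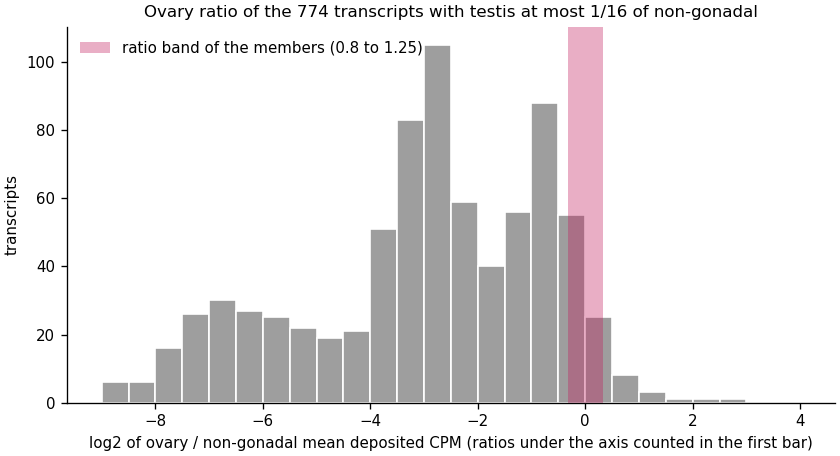
Bars count the 774 transcripts with a testis mean at or under 1/16 of the non-gonadal mean, in steps of 0.5 of the log2 ratio of ovary to non-gonadal mean CPM (x axis), with ratios below the axis in the first bar. The shaded band is the range of the 48 members, which lies on the right flank of the rise that reaches 88 transcripts at −1 to −0.5.

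Most members had low read levels by CPM, which is not scaled for transcript length. Their median level was 12.9 CPM in ovary, 0.207 CPM in testis and 13.4 CPM in non-gonadal tissue. The non-gonadal means ranged over 5.01 to 178 CPM. All other transcripts of at least 5 CPM in non-gonadal tissue had a median of 22.3 CPM there. Scaled for length, as TPM, the order was reversed. The median non-gonadal level was 30.7 TPM in the members and 13.9 TPM in all those others. It was 19.1 TPM in the other transcripts that were low in testis. Together they summed to 1292, 906 and 972 CPM in the ovary libraries, 23.3, 19.6 and 23.4 CPM in the testis libraries, and 1085, 1151 and 1054 CPM in the non-gonadal libraries. As a share of counted reads the set took 0.123% to 0.178% in ovary, 0.00124% to 0.00176% in testis and 0.108% to 0.120% in non-gonadal libraries.

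The member with the highest CPM was SMED30018297, a transcript of 417 nt. It had 205, 177 and 218 CPM in ovary libraries, 3.17, 4.15 and 4.50 CPM in testis libraries and 188, 181 and 165 CPM in non-gonadal libraries. All testis values were far below the other 6, and the ovary and non-gonadal values overlapped. Its ovary to non-gonadal ratio was 1.13 and its testis level was 2.22% of the non-gonadal level. The second member, SMED30020846 (293 nt), had 145, 87.8 and 104 CPM in ovary, 2.81, 1.36 and 3.13 CPM in testis and 118, 149.5 and 117 CPM in non-gonadal libraries. Its ovary libraries spread more widely, and library 1 was the highest of the 3.

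Scaled for length, as TPM, these 2 transcripts also led the set. SMED30018297 averaged 682 ± 53.9 TPM in ovary, 6.41 ± 0.971 TPM in testis and 397 ± 30.6 TPM in non-gonadal tissue, and SMED30020846 averaged 542 ± 112 TPM in ovary, 5.75 ± 2.44 TPM in testis and 407 ± 59.3 TPM in non-gonadal tissue (SD, n = 3 each). TPM also sums to the same total in every library. The next 3 members by non-gonadal TPM were SMED30020099, SMED30004026 and SMED30025099. On this scale SMED30020099 averaged 178 ± 58.5 TPM in ovary, 0.491 ± 0.308 TPM in testis and 134 ± 18.3 TPM in non-gonadal tissue. SMED30004026 averaged 194 ± 42.4 TPM in ovary, 3.44 ± 1.54 TPM in testis and 127 ± 15.0 TPM in non-gonadal tissue. SMED30025099 averaged 115 ± 30.3 TPM in ovary, 0.0948 ± 0.0918 TPM in testis and 92.2 ± 6.29 TPM in non-gonadal tissue. In each of these 5 transcripts the mean TPM in ovary exceeded that in non-gonadal tissue, although the CPM means were within the band, and this held for all 48 members on the TPM scale.

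Below the leading pair, 5 members had non-gonadal means of 33.9 to 56.4 CPM. SMED30029642 (820 nt) had 62.3, 41.4 and 37.2 CPM in ovary, 2.57, 1.67 and 1.31 CPM in testis and 54.0, 59.9 and 55.5 CPM in non-gonadal libraries. SMED30020099 (378 nt) had 68.5, 34.8 and 39.7 CPM in ovary, 0.119, 0.248 and 0.455 CPM in testis and 49.4, 63.0 and 51.0 CPM in non-gonadal libraries. These 2 had similar CPM in ovary and body but differed in testis, where SMED30029642 kept 3.28% of its non-gonadal level and SMED30020099 0.503%. SMED30025099 (428 nt) had 46.8, 30.9 and 26.6 CPM in ovary libraries, 1, 0 and 2 reads in testis libraries and 45.0, 41.9 and 40.2 CPM in non-gonadal libraries. SMED30004026 (307 nt) had 55.1, 34.9 and 36.1 CPM in ovary, 2.21, 1.30 and 1.08 CPM in testis and 39.7, 47.4 and 38.3 CPM in non-gonadal libraries. SMED30005241 (360 nt) had 53.7, 19.9 and 22.7 CPM in ovary, 1.254, 1.12 and 1.54 CPM in testis and 39.4, 31.4 and 30.9 CPM in non-gonadal libraries. In all 5 of these the ovary library 1 was the highest of its tissue.

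The other 13 of the 20 members with the highest non-gonadal level averaged 16.3 to 31.0 CPM there. In the order of that level, the ovary and non-gonadal means were 28.4 ± 6.85 and 31.0 ± 2.70 CPM for SMED30014217, and 29.6 ± 10.5 and 28.0 ± 5.58 CPM for SMED30009198 (SD, n = 3 each). They were 22.7 ± 4.79 and 25.7 ± 1.92 CPM for SMED30005967, and 30.6 ± 8.16 and 25.7 ± 3.58 CPM for SMED30026988. For SMED30034941, the member over 1000 nt with the highest non-gonadal CPM, they were 20.8 ± 6.29 and 24.2 ± 1.18 CPM. In these 5 the difference of the means was smaller than the larger of the 2 SDs. The ovary and non-gonadal means were 27.9 ± 16.9 and 23.8 ± 5.75 CPM for SMED30012661, 25.6 ± 6.16 and 22.9 ± 2.61 CPM for SMED30031020, and 20.1 ± 5.83 and 22.9 ± 0.245 CPM for SMED30000552. They were 17.8 ± 4.65 and 20.5 ± 3.35 CPM for SMED30016650, and 14.5 ± 3.09 and 18.1 ± 0.988 CPM for SMED30011959, which lies at the lower edge of the ratio band. The last 3 of the 20 were SMED30018860 with 14.8 ± 1.86 CPM in ovary and 18.0 ± 1.00 CPM in non-gonadal tissue, SMED30024988 with 17.0 ± 7.40 and 17.3 ± 0.944 CPM, and SMED30026493 with 13.3 ± 3.00 and 16.3 ± 1.91 CPM. Of these 8, SMED30011959 and SMED30018860 differed by more than the larger SD, as did SMED30026493 by a narrow margin. These 3 were lower in ovary on the CPM scale and higher in ovary on the TPM scale, with ovary and non-gonadal means of 51.3 and 42.2 TPM for SMED30011959, 48.8 and 38.9 TPM for SMED30018860, and 26.8 and 21.6 TPM for SMED30026493.

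**Figure D3:**
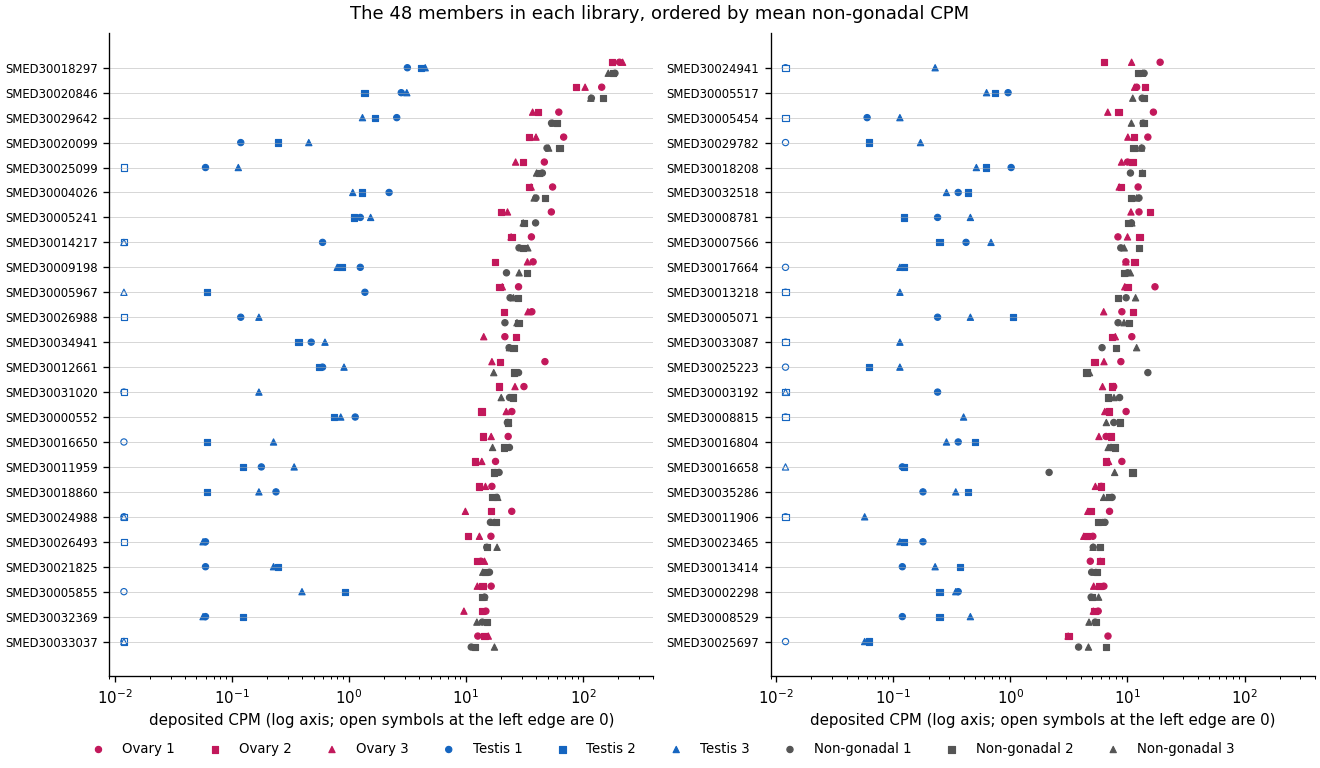
Each row is 1 member, in the order of its mean non-gonadal CPM (left panel, the first 24; right panel, the other 24), and each symbol is 1 library on a log axis of deposited CPM, with open symbols at the left edge for 0. In every row the testis symbols lie left of all ovary and non-gonadal symbols, whose ranges overlap in 45 of the 48 rows.

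Testis levels differed widely within the limit. As a share of the non-gonadal level, the testis level had a median of 1.47%, with quartiles of 0.558% and 3.52% and a maximum of 6.25%. It was at or under 1% in 20 members. The sum of testis reads over the 3 libraries had a median of 10.5 and a maximum of 199, while the lowest count of any member in a single library was 89 in ovary and 42 in non-gonadal tissue. Every testis library was below every ovary and non-gonadal library in 48 of 48 members. Over all 18416 transcripts tested this was so in 35.7%, and since the rule used these values nothing is read from the difference.

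No testis read was counted for 2 members. SMED30024988 (352 nt) had 702, 570 and 283 reads in ovary libraries, 0, 0 and 0 in testis libraries and 318, 408 and 358 in non-gonadal libraries. SMED30033037, the shortest member at 217 nt, had 360, 503 and 444 reads in ovary libraries, 0, 0 and 0 in testis libraries and 218, 271 and 359 in non-gonadal libraries. A count of 0 allows up to 3 reads over the 3 testis libraries. Against this floor SMED30024988 was at least 285-fold lower in testis than in ovary and at least 291-fold lower than in non-gonadal tissue. For SMED30033037 the bounds were at least 239-fold lower than in ovary and at least 228-fold lower than in non-gonadal tissue. The floor is a one-sided limit. The exact 95% interval, which is 2-sided and starts lower, began at 231-fold against ovary and 236-fold against non-gonadal tissue for SMED30024988, and at 194-fold and 185-fold for SMED30033037.

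A further 9 members had 1 to 3 testis reads in all. SMED30025099, the one with the highest non-gonadal CPM, had 1, 0 and 2 testis reads, and the non-gonadal level was 712 times the testis level with an exact 95% interval of 243 to 3453. SMED30031020 had 0, 0 and 3 testis reads and a ratio of 387 (interval 132 to 1878). SMED30026493 had 1, 0 and 1 testis reads and a ratio of 410.3 (interval 113 to 3392). The intervals rest on summed counts and cover nothing but counting error, because reads that carry no molecular identifier can be copies of 1 molecule. They are too wide to order these members by their testis level.

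Reads were more often spread over the testis libraries than gathered in 1 of them. A read was found in every testis library for 26 members, and in 22 members at least 1 testis library was at 0. Of those with a 0, 5 were singled out after their values were seen because their reads were uneven. SMED30005967 had 23, 1 and 0 testis reads, SMED30014217 had 10, 0 and 0, SMED30005855 had 0, 15 and 7, SMED30008815 had 0, 0 and 7 and SMED30024941 had 0, 0 and 4. In the first 2 of these library 1 held nearly all testis reads, in SMED30005855 library 2 held most, and in the last 2 library 3 held all. Over the whole set, library 3 was the highest testis library in 22 members (45.8%), library 1 in 13 and library 2 in 11. Library 3 was also the highest in 50.1% of the other transcripts that were low in testis. Among all other transcripts of at least 5 CPM in non-gonadal tissue it was so in 31.9%.

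The members nearest to the testis limit were mostly long. SMED30005071 (3757 nt) had 0.239, 1.05 and 0.455 CPM in testis libraries and 8.31, 10.3 and 9.34 CPM in non-gonadal libraries, a share of 6.249%. SMED30002298 (1323 nt) had 0.358, 0.248 and 0.342 CPM in testis and 4.90, 4.96 and 5.67 CPM in non-gonadal libraries, a share of 6.10%. Just outside the limit were SMED30019712 at 6.254% and SMED30013426 at 6.270%, so that the limit separated values that differ by far less than their spread between libraries.

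Between ovary and non-gonadal tissue the ratios had a median of 0.920, with quartiles of 0.867 and 1.03. The ovary mean was above the non-gonadal mean in 18 members and below it in 30 on the deposited CPM scale, and above it in all 48 with library totals alone or with the deposited TPM. In edgeR's quasi-likelihood fit, which scales libraries by the trimmed mean of M-values (TMM), the log2 fold changes ran from −0.34 to 0.28 with a median of −0.14. Their standard errors had a median of 0.19 and ranged over 0.13 to 0.40. To be called, a transcript had to change by 2-fold or more, with a p of 0.01 or less after Benjamini-Hochberg adjustment. None of 48 members was called different between ovary and non-gonadal tissue, in a comparison that called 37.1% of 18416 transcripts. The rule fixed this outcome, and no member had an unadjusted p under 0.05 in edgeR. DESeq2 called 0 as well (37.8% of all tested) and gave 1 member, SMED30018208, an unadjusted p of 0.0363 and a Benjamini-Hochberg adjusted p of 0.0528. For the same reason all 48 were called lower in testis when set against non-gonadal tissue (35.1% of all tested; 34.0% in DESeq2) and all 48 higher in ovary when set against testis (31.6%; 29.3% in DESeq2). These comparisons share their libraries, so they are not separate evidence.

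Ovary and non-gonadal libraries overlapped in 45 members and did not in 3, where over all transcripts tested 71.8% did not overlap. The rule kept the means of these same libraries close together, so nothing is read from the difference. In SMED30018860 (430 nt) the ovary libraries had 16.7, 13.0 and 14.7 CPM, below all non-gonadal libraries with 18.3, 16.8 and 18.7 CPM. SMED30035286 (3214 nt) had 5.98, 5.97 and 5.32 CPM in ovary and 7.39, 6.99 and 6.26 CPM in non-gonadal libraries. SMED30023465 (1357 nt) had 5.06, 4.51 and 4.24 CPM in ovary and 5.10, 5.84 and 5.09 CPM in non-gonadal libraries. All 3 were lower in ovary, with log2 fold changes of −0.30 ± 0.14, −0.28 ± 0.16 and −0.24 ± 0.16 (SE). The direction held on the deposited CPM and TMM scales and turned on the TPM scale, where every ovary library of these 3 was above every non-gonadal one. SMED30018860, for example, had 52.5, 45.5 and 48.5 TPM in ovary libraries and 40.1, 36.4 and 40.1 TPM in non-gonadal libraries.

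The edges of the ratio band also cut through close values. Inside the lower edge, SMED30018208 had 10.0, 11.1 and 8.89 CPM in ovary and 10.6, 13.4 and 13.4 CPM in non-gonadal libraries, and SMED30011959 had 17.9, 11.9 and 13.7 CPM in ovary and 19.2, 17.3 and 17.8 CPM in non-gonadal libraries, both with a ratio of 0.801. Just outside it were SMED30008266 at a ratio of 0.799 and SMED30033220 at 0.795. Inside the upper edge, SMED30013218 had 17.2, 9.99 and 9.49 CPM in ovary and 9.74, 8.28 and 11.7 CPM in non-gonadal libraries, a ratio of 1.23, and SMED30008781 had 12.5, 15.6 and 10.7 CPM in ovary and 10.8, 10.2 and 10.9 CPM in non-gonadal libraries, a ratio of 1.22. The first transcripts beyond it were SMED30011248 at 1.30 and SMED30026700 at 1.30. By level, the last members inside the minimum of 5 CPM were SMED30025697 at 5.01 CPM and SMED30008529 at 5.12 CPM, and the first outside were SMED30009617 at 4.76 CPM and SMED30029127 at 4.39 CPM.

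What the members shared beyond the rule was, first, that most were short. Transcript length was recovered from the deposited counts and RPKM, a read value scaled for length. The median length was 408.5 nt in the 48 members, 1067.5 nt in the other 726 transcripts that were low in testis, and 1506 nt in all 11288 other transcripts of at least 5 CPM in non-gonadal tissue. Of the members, 36 were under 1000 nt, 6 were 1000 to under 3000 nt and 6 were 3000 nt or more, classes that were chosen after the lengths had been seen. The shortest was SMED30033037 at 217 nt and the longest SMED30005517 at 6411 nt. Transcripts come from a de novo assembly, and whether a short one is a whole transcript or a fragment was not tested.

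Length went together with the testis level. The median testis share of the non-gonadal level was 0.834% in the 36 members under 1000 nt, 2.58% in the 6 of 1000 to under 3000 nt and 5.47% in the 6 of 3000 nt or more. All 11 members with 3 or fewer testis reads were under 1000 nt, as were 46 of the 71 such transcripts among the other 726 low in testis. In the 726 other low-testis transcripts the medians were 2.29%, 3.95% and 3.81% in the same classes, so the step beyond 3000 nt was not seen there. The longest member, SMED30005517, had 12.0, 14.1 and 11.5 CPM in ovary, 0.956, 0.744 and 0.626 CPM in testis and 13.4, 13.9 and 11.1 CPM in non-gonadal libraries, a testis share of 6.06%. A long member with little in testis was SMED30017664 (2188 nt), with 9.70, 11.5 and 9.70 CPM in ovary, 0, 2 and 2 reads in testis and 10.0, 9.38 and 10.6 CPM in non-gonadal libraries, a share of 0.791%. The testis share is bounded by the rule, and these medians are descriptions of the chosen set. Members under 1000 nt also had a higher median non-gonadal level, 16.8 CPM against 9.67 CPM in those of 1000 nt or more. Length and level were not separated.

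The members also shared a pattern among the ovary libraries. It is not independent of the rule, which used the mean of these libraries, so that a transcript could enter the band through a high library 1. Without that library the rule kept 27 of the 48. Ovary library 1 was the highest of the 3 in 33 of the 36 members under 1000 nt (91.7%), library 3 in the other 3 and library 2 in none. Among all other short transcripts of at least 5 CPM in non-gonadal tissue, library 1 was the highest in 1347 of 3150 (42.8%), and among the other short low-testis transcripts in 214 of 335 (63.9%). In the 12 members of 1000 nt or more, library 2 was the highest in 9. Among all other transcripts of that length it was so in 5655 of 8138 (69.5%), and among the other low-testis ones in 201 of 391 (51.4%). The median ratio of a library to the ovary mean in short members was 1.26 for library 1, 0.850 for library 2 and 0.888 for library 3. It was 1.16, 0.917 and 0.872 in the other short low-testis transcripts, and 1.03, 0.935 and 1.03 in all other short transcripts.

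Other measures also differed between the ovary libraries. tph1 was at 3.13, 1.92 and 2.14 CPM in ovary libraries 1 to 3, and the 4 testis markers summed to 86.9, 39.4 and 82.0 CPM. The ovary markers summed to 1635, 1465 and 1670 CPM, and total counts were 20629642, 25730833 and 20701734. The part of these differences in the levels of the members was not tested.

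**Figure D4:**
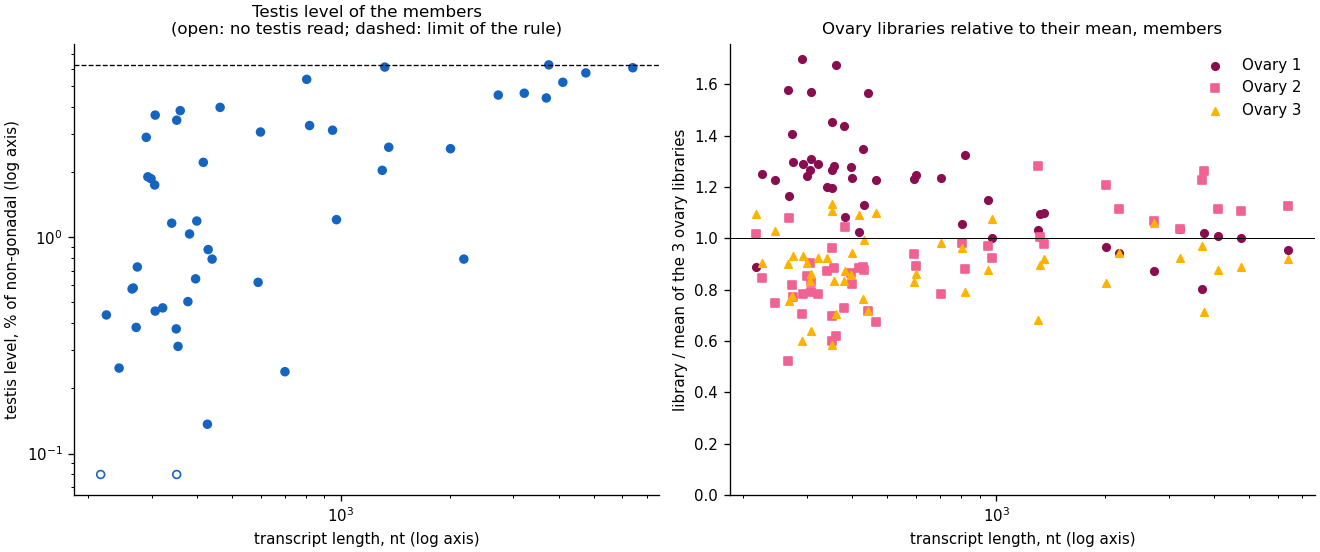
Left, the testis level of each of the 48 members as a percent of its non-gonadal level (log axis) against transcript length in nt (log axis), with open symbols for the 2 members without a testis read and a dashed line at the limit of the rule. Right, each ovary library relative to the mean of the 3 against length. The median testis level is lower in the 36 members under 1000 nt (0.834%) than in the 12 of 1000 nt or more (4.58%), with overlap. Ovary library 1 is the highest in 33 of these 36, and library 2 in 9 of these 12.

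Ovary libraries spread more widely than non-gonadal ones. The ratio of the highest to the lowest ovary library had a median of 1.52 in the members, 1.51 in the other low-testis transcripts and 1.23 in all other transcripts of at least 5 CPM in non-gonadal tissue. It was over 1.5 in 26 members (54.2%), against 53.3% of the other low-testis transcripts and 11.2% of all others. Among non-gonadal libraries the median ratio was 1.20 in the members, 1.22 in the other low-testis transcripts and 1.15 in all others. It was over 1.5 in 7 members (14.6%), against 13.8% of the other low-testis transcripts and 4.27% of all others.

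The widest ovary spread was that of SMED30024941, with 19.0, 6.32 and 10.9 CPM, 3.01-fold between its highest and lowest library. Next came SMED30012661 with 47.4, 19.7 and 16.7 CPM and SMED30005241 with 53.7, 19.9 and 22.7 CPM, and in all 3 library 1 was the highest. At the other end, SMED30008529 had 5.62, 5.23 and 5.11 CPM, SMED30035286 had 5.98, 5.97 and 5.32 CPM and SMED30021825 had 13.5, 12.4 and 14.4 CPM in ovary libraries. These 3 narrow members are 805 to 3214 nt long, and the 3 wide ones are 265 to 360 nt long.

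Non-gonadal libraries were usually closer together. SMED30000552 had 22.6, 22.9 and 23.1 CPM, SMED30005855 had 14.5, 13.8 and 14.3 CPM and SMED30008781 had 10.8, 10.2 and 10.9 CPM in them. The widest spreads were those of 3 members. SMED30016658 had 42, 250 and 159 reads or 2.14, 11.1 and 7.78 CPM. SMED30025223 had 293, 101 and 97 reads or 14.9, 4.47 and 4.74 CPM. SMED30033087 had 119, 181 and 245 reads or 6.07, 8.01 and 12.0 CPM. In SMED30016658 library 1 was the low one, 5.17-fold under the highest, and in SMED30025223 library 1 was the high one. Their non-gonadal means were 6.99 ± 4.51 CPM for SMED30016658 and 8.05 ± 5.97 CPM for SMED30025223 (SD, n = 3 each). The log2 ratio of ovary to non-gonadal tissue of SMED30016658 was −0.34 without non-gonadal library 1, 0.59 without library 2 and 0.18 without library 3. That of SMED30025223 was 0.56 without library 1, −0.54 without library 2 and −0.52 without library 3. Leaving out library 1 or 2 thus put SMED30016658 outside the band, and leaving out any of the 3 did so for SMED30025223.

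To see how far membership carried over to libraries that had not been used, the rule was applied to the libraries of 2 replicate numbers and the chosen transcripts were read in the third. The labels do not say whether libraries of the same number come from the same worms, and the numbers served only to name the set left aside. With number 1 left aside 33 transcripts were chosen, of which 19 had an ovary ratio inside the band in the unused libraries, 30 were under the testis limit and 17 met both. With number 2 left aside 56 were chosen, of which 21 were inside the band, 50 under the testis limit and 15 met both. With number 3 left aside 57 were chosen, of which 24 were inside the band, 49 under the testis limit and 21 met both. Low testis levels thus carried over in most transcripts chosen, and the ovary level carried over less often. Across all transcripts of at least 5 CPM in non-gonadal tissue, 24.6% to 25.8% were inside the band and 6.80% to 7.58% under the testis limit in a given number.

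The unused ovary ratio had a median of 1.09 for number 1, with 12 transcripts above the band and 2 below. For number 2 the median was 0.737, with 2 above and 33 below, and for number 3 it was 0.785, with 3 above and 30 below. With number 1 aside the misses were mostly above the band, and with number 2 or 3 aside they were mostly below it. Without ovary library 1 the rule chose 33 transcripts, 27 of them among the 48.

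Equality of ovary and body also depended on how libraries are put on a common scale. The factor within the deposited CPM was 1.35 to 1.38 in ovary, 0.632 to 0.756 in testis and 1.02 to 1.05 in non-gonadal libraries. Scaled by library totals alone, with no such factor, the ovary mean was above the non-gonadal mean in 48 of 48 members, with a median log2 ratio of 0.28, and 21 of them lay above the band. On the deposited TPM scale it was also above in all 48, with a median of 0.49, and 44 lay above the band. With TMM or DESeq2 factors it was above in 13 and below in 35. The same changes of scale moved the median of all 18416 tested transcripts, which was 0.04 with the deposited CPM, 0.35 with library totals and 0.50 with TPM. For the median of all transcripts 0.5 was added to each value, and nothing was added for that of the members.

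The low level in testis was kept under each of these scales. The median log2 ratio of testis to non-gonadal tissue over the members was −6.11 with the deposited CPM, −6.66 with library totals and −6.56 with TPM. No member exceeded the testis limit with library totals, TPM or TMM, and 3 did with DESeq2 factors. Over all tested transcripts, again with 0.5 added to each value, the median of this ratio was −0.07 with the deposited CPM. It was −0.56 with library totals and −0.43 with TPM. The rule itself chose 139 transcripts with library totals (27 of them members), 47 with TMM (46 members), 40 with DESeq2 factors (40 members) and 105 with TPM (3 members, SMED30025099, SMED30011959 and SMED30026493).

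**Figure D5:**
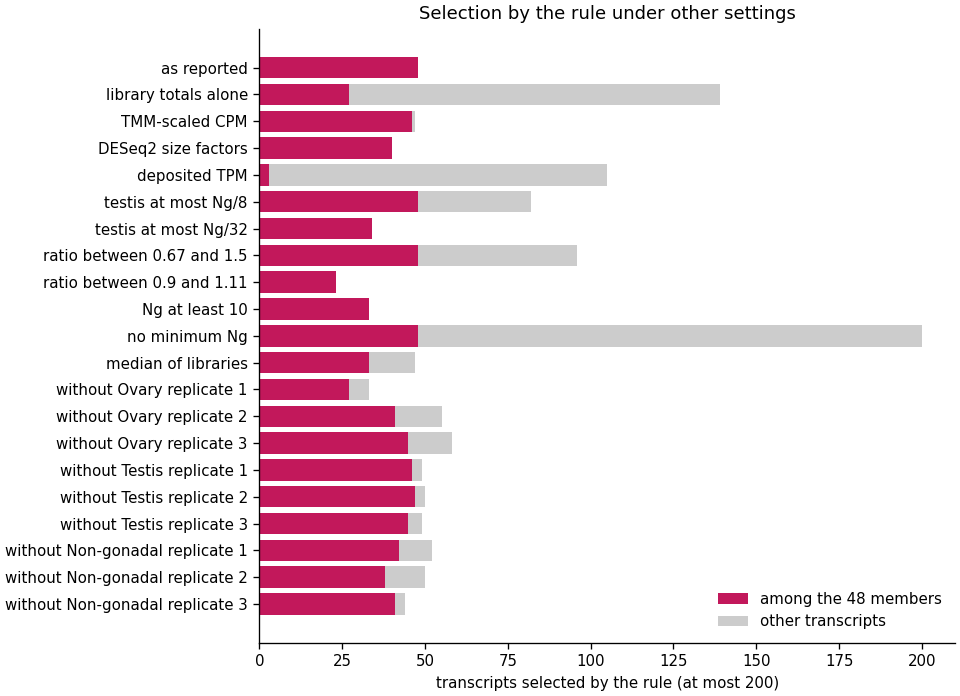
Bars give the number of transcripts that the rule chose (x axis) under the reported settings and under each alternative, split into those among the 48 members (coloured) and others (grey). With TPM the rule chose 105 transcripts, of which 3 are members, and leaving out ovary library 1 gave the lowest number among the left-out libraries, 33.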

How the data were processed

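RNA from laser-captured ovary, testis and non-gonadal tissue of the sexual planarian was sequenced in 3 libraries per tissue, grouped by the tissue that their labels give. Read trimming and mapping were done by the authors with CLC Genomics Workbench, against the assembled transcriptome smed_20140614 to which zfs1 had been added. For that program, the version, the settings, the use of strand and the handling of reads with several matches were "not given in the sources used here", so near-identical transcripts may share reads. The authors deposited raw counts per transcript for 36036 transcripts, with RPKM and TPM computed from them. They also deposited a signal named CPM, which sums to a different total in each library and so carries a composition factor that the sources used here do not describe. The plan had taken it for plain CPM. The deposited fold changes and p-values of the authors' own comparisons were not used.

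Members were selected on the means of the deposited CPM. The members, the lists and the tests were chosen with earlier results of these data known. The named members are the 20 with the highest non-gonadal CPM, those without a testis read, the 2 on each side of each limit, the 3 widest and 3 narrowest in ovary and in non-gonadal libraries, and the 5 with the highest non-gonadal TPM. Others are named where single values needed them. Length was recovered from counts and RPKM, and all 121050 values with at least 50 counts gave a whole-number length within 0.5%. Counts of the 2 deposited tables were equal in all 324324 values.

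The 18416 transcripts that reached 1 CPM in 3 or more libraries entered the edgeR 4.0.16 quasi-likelihood test on counts, scaled by TMM, with all 9 libraries in 1 model (limma 3.58.1, R 4.3.3). DESeq2 1.42.0 was an alternative. Standard errors were derived from the log2 fold change and its F statistic. Each library pools captures from several worms, and p-values measure the spread between such pools. Count ratios have exact 95% binomial intervals (scipy 1.17.1), and a count of 0 has a floor of 3. The tests were checked on simulated data. Alternatives covered scaling, the limits of the rule, low-value filters, the replicate block and each library left out.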

Additional observations from a re-analysis of the deposited data

How the results depend on the processing

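The number of transcripts chosen, 48 as reported, was 139 with library totals alone, 105 with the deposited TPM, 82 with a testis limit of 1/8, 96 with a ratio band of 0.67 to 1.5, 23 with a narrower band that starts at 0.9 and 200, the upper limit of the rule, with no minimum in non-gonadal tissue. It was within 1.5 times of 48 with a testis limit of 1/32 (34), a minimum of 10 CPM (33), medians of libraries (47, of which 33 are members), TMM (47) and DESeq2 factors (40). The TMM factors lie close to those within the deposited CPM, so the TMM count is not a separate check. Leaving out 1 library gave 33 to 58 transcripts, of which 27 to 47 were members, and the lowest of each came without ovary library 1. The median log2 ratio of ovary to non-gonadal tissue over the members, −0.12 as reported, was 0.28 with library totals and 0.49 with TPM, and −0.24 to −0.01 with 1 library left out. The median log2 ratio of testis to non-gonadal tissue, −6.11 as reported, was −6.66 with library totals and −6.56 with TPM, and −6.14 to −5.84 with 1 library left out. Changes of scale also moved the median of all tested transcripts, as given with the ratios.

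The calls did not change under any alternative run. The rule had fixed their outcome, so this constancy is not a check of the set. Over all transcripts tested, the main edgeR fit called 37.1% different between ovary and non-gonadal tissue. It called 35.1% lower in testis against non-gonadal tissue and 31.6% higher in ovary than in testis. With the replicate block in the edgeR model, 0 members were called different between ovary and non-gonadal tissue, 48 lower in testis against non-gonadal tissue and 48 higher in ovary than in testis, and the same counts came from every other fit and from each fit with 1 library left out. Deviations of same-numbered libraries from their tissue means correlated by 0.0089 to 0.23, and those of differently numbered libraries by −0.20 to 0.088. The labels do not say whether same-numbered libraries share worms, and this was not tested. Where leaving out a library left 2 in a tissue, the spread was pooled over all tissues.

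Counting depth limits the testis values: 11 members had 3 or fewer testis reads, and their ratios have wide intervals. The limits of the rule cut through close values, and membership changed when single libraries were left out. Neither equality of ovary and body nor the absence of any testis expression was shown.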
